A study of Sus scrofa with 9 samples.

Results

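The 9 genes described here act around the transcription factor NRF2 and in the glutathione and thioredoxin systems, and their transcripts were followed in porcine valvular interstitial cells (PVICs), the resident fibroblast-like cells of the aortic valve. They were chosen by symbol as NFE2L2, KEAP1, HMOX1, NQO1, GCLC, GCLM, GSR, TXNRD1 and SRXN1. HMOX1 was not analysed here, so the values cover 8 of the 9 genes, which are 8 of 19535 genes in the table, and all 8 passed the filter on low counts. PVICs came from the aortic valves of wild-type pigs aged 4 to 5 months. They were kept in DMEM (control), in osteogenic medium with 2 mmol/L phosphate, 50 µg/mL ascorbic acid and 1e-07 mol/L insulin (OIM), or in the same medium with 50 ng/mL basic fibroblast growth factor (bFGF). Each group had 3 libraries. The labels give 3 days of treatment and a kit that depletes ribosomal RNA from total RNA, whereas the methods of the study give a shorter treatment and a poly-A kit. Neither source says how many animals gave the cells or whether replicates are separate cultures, so p-values measure only the spread between these libraries, which may be technical.

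NRF2, encoded by NFE2L2, is held in the cytoplasm and passed to the proteasome by KEAP1, which carries reactive cysteines that sense electrophiles and oxidants. When KEAP1 is modified, NRF2 reaches the nucleus, pairs with a small MAF protein and binds antioxidant response elements near genes for glutathione synthesis, quinone reduction and thioredoxin recycling. Oxidative stress in valve interstitial cells has long been studied beside valve calcification, which is the setting of these cultures. Because the regulation of NRF2 acts largely on the protein, the level of the NFE2L2 transcript is not a measure of NRF2 activity.

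A bFGF library held 46773376 to 48270827 gene counts, a control library 57075793 to 64723837 and an OIM library 57682710 to 67371523. The 8 genes had between 1227 and 13598 counts in each library, so counting error was small for them. Levels are CPM, the counts rescaled to a common library size with TMM factors. A gene was called when its adjusted p did not exceed 0.05 and its log2 fold change was 0.5 or more in either direction, the limits in the methods of the study. The adjusted p came from the quasi-likelihood test of edgeR with Benjamini-Hochberg adjustment over 13662 genes. Markers of fibroblasts and interstitial cells were abundant, with all 10 of a list tested and a summed level of 65050 to 70433 CPM in control, 61636 to 64447 in OIM and 38872 to 39217 in bFGF. The lower sum in bFGF lay in the collagens, with COL1A1 at 25047 CPM in OIM and 9886 in bFGF. In bFGF against OIM 4 of the 10 were called lower (COL1A1, COL1A2, COL3A1 and DCN) and 3 higher (VIM, POSTN and S100A4). Over all genes tested, 36.2% were called in that comparison in either direction and 17.7% were called higher. All 5 myofibroblast and smooth muscle markers were tested, and their sum was 9567 to 10095 CPM in control, 9853 to 13057 in OIM and 1536 to 1712 in bFGF. OIM replicate 2 stood apart, with ACTA2 at 6852 CPM beside 9210 and 9286 in replicates 1 and 3. MYH11 was at 182 CPM there, beside 325 and 337. Of other cell types, all 8 endothelial markers were tested and summed to 72.6 to 74.4 CPM in control, 86.8 to 87.9 in OIM and 167 to 177 in bFGF. Most of that sum was ERG alone, at 51.5, 66.8 and 137 CPM on average. In bFGF against OIM 6 of the 8 were called higher, all but VWF and TIE1, beside 17.7% of all genes. Of these 6, CLDN5 (0.0601 to 0.336 CPM), KDR (0.169 to 1.17) and TEK (0.740 to 1.52) had low levels. PECAM1 went from 11.8 to 20.7 CPM, and VWF stayed under 0.5 CPM on average in each group. The 8 macrophage and leukocyte markers, 5 of them tested, summed to 14.5 to 18.0, 15.6 to 16.8 and at most 9.64 CPM. Most of this sum was CD14, at 13.7, 13.5 and 7.68 CPM on average. CD163 averaged 1.43, 1.05 and 0.570 CPM, and PTPRC, CD68 and CSF1R under 0.5 in each group. The part of these markers in the results below was not tested. In these bulk libraries fewer cells of a type and less RNA per cell cannot be told apart.

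The letters of the antioxidant response element core, TGACNNNGC, were searched on both strands from 1000 bases before to 100 bases after the annotated start of each gene (RefSeq, Sscrofa11.1). The matches are shown because binding to this element is what groups the NRF2 targets. The core occurred in 5 of the 8 windows, and in 33.9% of 19509 windows of the same length over the genes of the table. Capitals mark the matched letters, and each sequence is read 5′ to 3′ on the strand that holds the core.
NQO1, chr6:17292742-17292770, plus strand, 210 bases before the start: ctagtcacagTGACTCAGCgagattctga
GCLC, chr7:27209373-27209401, plus strand, 182 bases before the start: aaaacgaggcTGACCCGGCtcctcgccgc
GCLC, chr7:27208863-27208891, minus strand, 692 bases before the start: aaaaaatgtgTGACAGAGCcatgaaatga
GCLM, chr4:123370715-123370743, plus strand, 473 bases before the start: tctcactcttTGACTTCGCatacgggccc
GSR, chr15:54381767-54381795, minus strand, 787 bases before the start: gtttgatcccTGACCTGGCtcaatggatt
KEAP1, chr2:69290856-69290884, plus strand, 607 bases before the start: cactcagatcTGACATTGCtgtggctgtg
With an A also required after the core, 1 of the 8 windows (GCLM) and 9.67% of all windows held a match, and the shorter spelling was taken after this one had been tried. A match gives only the letters in this window, and the genes without one may hold the element elsewhere.

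Without regard to the fold limit, NQO1, TXNRD1, SRXN1 and GSR were lower and GCLM was higher in OIM than in control, and no library of the 2 groups overlapped for these 5 genes, as for 28.8% of all genes tested. In bFGF against OIM, GCLC rose 2.29-fold and NQO1 1.48-fold and were the called genes, while NFE2L2 itself was lower in every bFGF library, with a fitted change short of the fold limit. The count of calls over the genes was 0 of 8 for OIM against control, where 2.35% of all tested genes were called, and DESeq2 and limma-voom also called 0. At an unadjusted p under 0.05 it was 5 of 8 without the fold limit, beside 26.2% of all genes, and 0 with it, beside 4.02%. The count of calls was 2 of 8 for bFGF against OIM, both higher, where 36.2% of all genes were called and 17.7% were called higher. It was 1 of 8 for bFGF against control, also higher, where 39% were called and 18.9% were called higher. As shares of the 8 genes these are 25% and 12.5%, and with so few genes each call moves the share widely. Each pair of comparisons shares the libraries of 1 group, so their values are given side by side and are not independent.

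**Figure D1:**
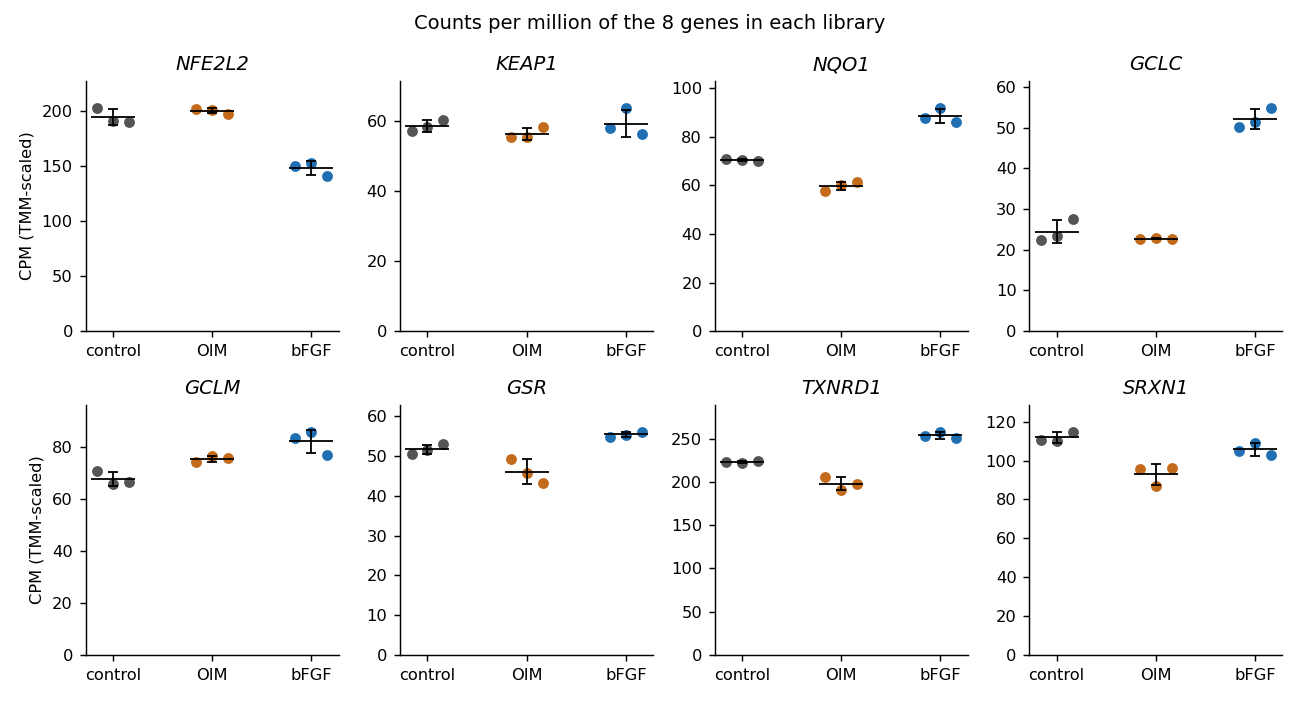
Level of each of the 8 genes (CPM on TMM-scaled library sizes, linear axis from 0) in the 3 libraries of the control, OIM and bFGF groups. Points are libraries, the wide bar is the group mean and the error bar 1 SD (n = 3). GCLC stood at 50.1 to 54.9 CPM in bFGF and at most 27.6 elsewhere, and NFE2L2 was lowest in bFGF.

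NFE2L2 (chromosome 15, 82967485 to 83146185, minus strand) is the gene for NRF2. It had 203, 191 and 190.0 CPM in control, 201, 201 and 197 in OIM, and 150.2, 152 and 141 in bFGF. All bFGF libraries lay below all others, while control and OIM overlapped. Against OIM the log2 fold change was -0.43, with a standard error of 0.0396 and an adjusted edgeR p of 6.19e-09, under the fold limit, and against control it was -0.40 (standard error 0.0396, adjusted p = 2.42e-08). Scaled by library totals alone, NFE2L2 was still lower, at -0.21 against OIM and -0.17 against control. OIM and control differed by 0.040 (standard error 0.0393, adjusted p = 0.575). The gene overlaps HNRNPA3 by 1256 bases and AGPS by 123 bases, both on the opposite strand. The sources used here do not say whether counting used strand, so reads from the overlaps cannot be assigned to one gene with certainty.

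KEAP1 (chromosome 2, 69280940 to 69290267, minus strand) is the adaptor that hands NRF2 to the CUL3 ubiquitin ligase. Its libraries held 57.1, 58.4 and 60.3 CPM in control, 55.5, 55.4 and 58.4 in OIM, and 57.9, 63.8 and 56.2 in bFGF. The groups overlapped in every comparison. The log2 fold change was -0.055 for OIM against control (2 standard errors either side, -0.16 to 0.047) and 0.072 for bFGF against OIM (-0.030 to 0.17), so a change of the size called here lay outside both ranges. For bFGF against control it was 0.017, and it turned to -0.0031 without control replicate 1 and to -0.039 without bFGF replicate 2. With library totals in place of TMM, KEAP1 was 0.29 higher in bFGF than in OIM.

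GCLC and GCLM encode the catalytic and modifier subunits of glutamate-cysteine ligase, the rate-limiting enzyme of glutathione synthesis. GCLC (chromosome 7, 27209565 to 27253535, plus strand) had 22.5, 23.4 and 27.6 CPM in control, 22.7, 23.0 and 22.6 in OIM, and 50.1, 51.3 and 54.9 in bFGF. Every bFGF library lay far above the other 6, and control and OIM overlapped. The log2 fold change was 1.19 against OIM, with a standard error of 0.0689 and an adjusted edgeR p of 5.34e-12. Against control it was 1.09, with a standard error of 0.0686 and an adjusted p of 1.83e-11. Both calls held with a fold limit of 1 and in all 9 fits that left out 1 library.

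GCLM (chromosome 4, 123371198 to 123390130, plus strand) had 70.9, 65.7 and 66.7 CPM in control, 74.1, 76.5 and 75.9 in OIM, and 83.6, 86.1 and 77.2 in bFGF. The 3 groups did not overlap, with control lowest and bFGF highest. The log2 difference was 0.16 for OIM against control (adjusted p = 0.0311 in edgeR's test), 0.12 for bFGF against OIM (adjusted p = 0.0248) and 0.28 for bFGF against control (adjusted p = 2.45e-05). The first failed the adjusted p without control replicate 2, control replicate 3 or OIM replicate 3, and the second without OIM replicate 1, bFGF replicate 1 or bFGF replicate 2. The highest adjusted p among these fits was 0.113 for the first and 0.143 for the second. Library totals alone gave GCLM 0.35 for bFGF against OIM and 0.50 for bFGF against control, the latter a call.

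The transcripts of the 2 subunits were set against each other per kilobase of exon, over 4.00 kb for GCLC and 5.10 kb for GCLM. GCLC stood at 0.462 ± 0.0615 of GCLM in control, 0.384 ± 0.00614 in OIM and 0.810 ± 0.0829 in bFGF (SD, n = 3). The bFGF libraries ranged from 0.759 to 0.906, above the highest control library at 0.527. OIM ranged from 0.379 to 0.391, below the lowest control library at 0.405. With 3 libraries against 3, an exact permutation test cannot reach the threshold, its smallest two-sided p being 0.1, so none is given for this ratio.

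**Figure D2:**
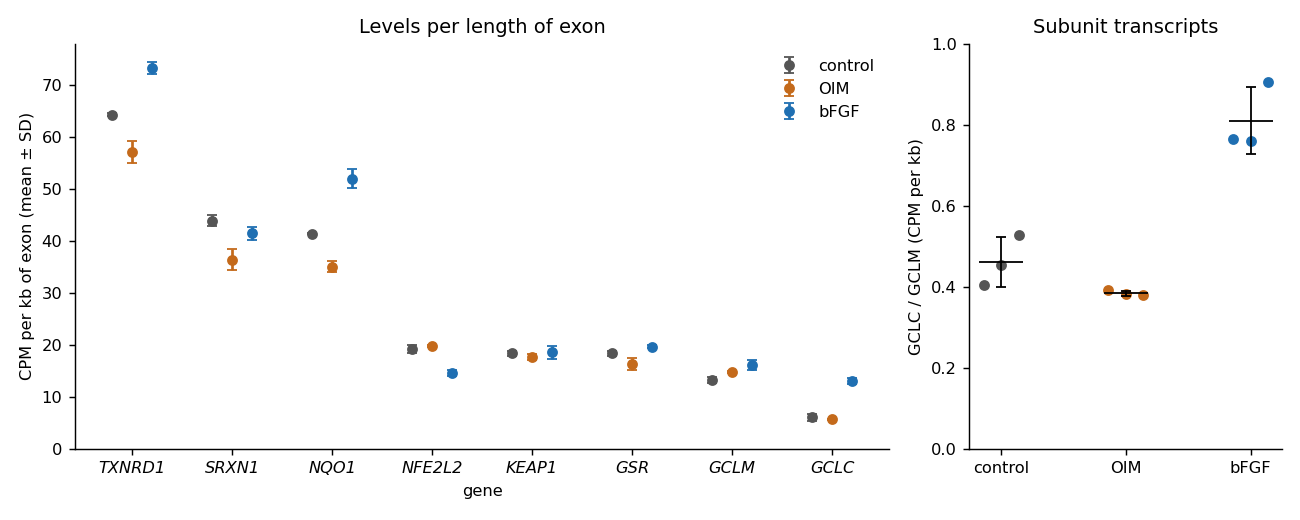
Left, level of the 8 genes per kilobase of annotated exon (CPM per kb, mean ± SD, n = 3) in control, OIM and bFGF, ordered by the control mean. Right, ratio of GCLC to GCLM on that scale, with a point per library, a wide bar for the mean and an error bar of 1 SD. TXNRD1 was highest in all 3 groups, GCLC was lowest, and the ratio was at least 0.759 in bFGF against at most 0.527 elsewhere.

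NQO1 encodes a quinone reductase widely used as a readout of NRF2. It lies on chromosome 6 (17292962 to 17302593, plus strand), and its libraries held 70.7, 70.4 and 70.1 CPM in control, 57.8, 59.9 and 61.3 in OIM, and 87.5, 91.8 and 85.9 in bFGF. The 3 groups were separate, with OIM lowest and bFGF highest. OIM against control gave -0.24 on the log2 scale, with a standard error of 0.0425 and an adjusted edgeR p of 0.000631, which was under the fold limit and passed the adjusted p in 9 of 9 fits with 1 library left out. Against OIM, NQO1 rose in bFGF by 0.57 (standard error 0.0425, adjusted p = 3.06e-10). Against control the bFGF libraries were 0.33 higher (standard error 0.0422, adjusted p = 8.23e-07), short of the fold limit, and scaling by library totals alone made this difference 0.55, which would be called.

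GSR, TXNRD1 and SRXN1 encode glutathione reductase, cytosolic thioredoxin reductase and sulfiredoxin, which return glutathione, thioredoxin and over-oxidised peroxiredoxins to their reduced forms. TXNRD1 (chromosome 5, 80170334 to 80213889, minus strand) had 223, 221 and 224 CPM in control, 205, 191 and 198 in OIM, and 254, 258 and 250.1 in bFGF. Its groups were separate in the order OIM, control, bFGF. The log2 fold change was -0.17 for OIM against control (adjusted p = 0.00247 in edgeR's test), 0.36 for bFGF against OIM (adjusted p = 2.20e-08) and 0.19 for bFGF against control (adjusted p = 9.60e-05), none of which reached the fold limit. Scaling by library totals alone gave 0.58 for TXNRD1 in bFGF against OIM, which would be called, and 0.41 in bFGF against control.

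SRXN1 (chromosome 17, 34582377 to 34589308, plus strand) had 111, 110.0 and 115 CPM in control, 95.6, 86.8 and 96.3 in OIM, and 105, 109 and 103 in bFGF. OIM was lowest and control highest, and no library of one group reached another. The log2 fold change was -0.27 for OIM against control (standard error 0.0444, adjusted p = 0.000304 in edgeR's test), and 0.19 for bFGF against OIM (adjusted p = 0.000967), or 0.41 with library totals alone. For bFGF against control it was -0.082 (adjusted p = 0.106), and with library totals alone it turned to 0.14 (adjusted p = 0.00629).

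GSR (chromosome 15, 54382564 to 54433989, plus strand) had 50.6, 51.6 and 53.0 CPM in control, 49.4, 45.7 and 43.2 in OIM, and 54.9, 55.3 and 56.2 in bFGF. The 3 groups did not overlap, though the OIM libraries were spread more widely than the others. The log2 fold change was -0.17 for OIM against control (adjusted p = 0.0365 in edgeR's test) and 0.27 for bFGF against OIM (adjusted p = 0.000125). The first passed the adjusted p in only 1 of the 9 fits that left out a library, the one without OIM replicate 1, and its adjusted p reached 0.169 without OIM replicate 3. With a replicate block it was 0.0512. For bFGF against control GSR differed by 0.10 (adjusted p = 0.0869). Library totals alone gave GSR 0.49 against OIM and 0.33 against control.

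**Figure D3:**
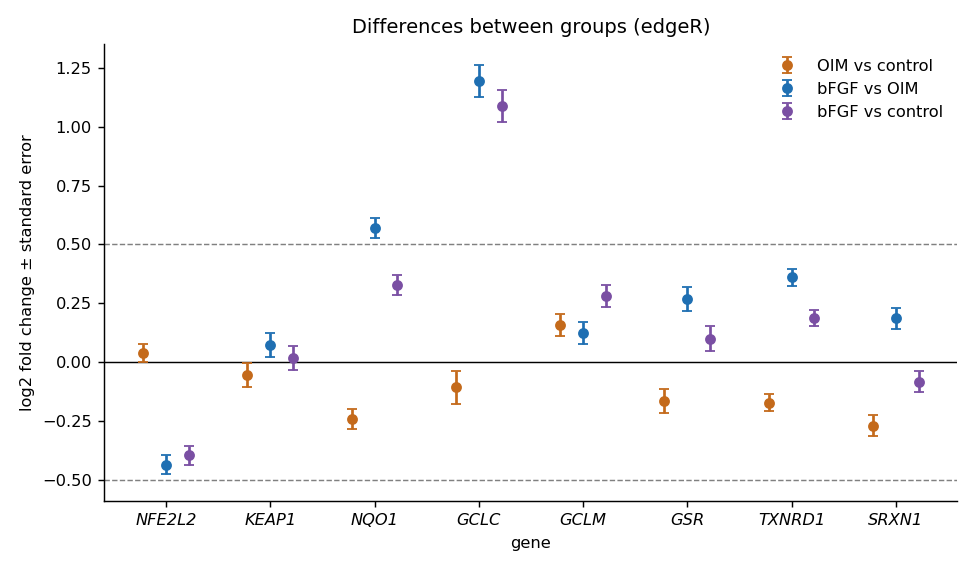
Log2 fold change with its standard error for the 8 genes in OIM against control, bFGF against OIM and bFGF against control (edgeR, 3 libraries per group). Dashed lines mark the fold limit of 0.5. GCLC at 1.19 and 1.09 and NQO1 at 0.57 lie beyond it, and NFE2L2 at -0.43 and -0.40 does not.

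Across the 8 genes the median log2 fold change was -0.14 for OIM against control, beside a median of -0.0019 over all genes tested, and 0.23 for bFGF against OIM, beside -0.0029. At the adjusted p alone, 4 of the 8 were lower and 1 was higher in OIM than in control, where 5.87% of all genes were lower and 7.69% higher. In all 5 of 8 passed it, beside 13.6% of all genes. With single libraries left out the count stayed at 5 in 1 of 9 fits, the one without OIM replicate 1, was 3 without control replicate 2, control replicate 3 or OIM replicate 3, and was 4 in the other 5 fits. It was also 4 with a replicate block, with only the 2 groups compared or with thinned libraries. In bFGF against OIM 7 passed the adjusted p, 6 higher and 1 lower, beside 67.4% of all genes (33.8% higher and 33.5% lower). In bFGF against control 5 passed, 4 higher and 1 lower, beside 70.2% of all genes (34.5% higher and 35.7% lower). With library totals alone all 8 passed in both bFGF comparisons, 7 higher and NFE2L2 lower. Under that scaling the median over all genes was itself 0.22 against OIM and 0.21 against control. Of all genes called, 68.8% and 68.1% were then higher. The libraries of the 2 groups did not overlap for 7 of 8 genes in each bFGF comparison, beside 72.1% of all genes against OIM and 73.7% against control. With 8 genes chosen by name these counts are descriptions, and they say nothing of the genes as a set.

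Per kilobase of exon the order in control was TXNRD1 (64.4 ± 0.375 CPM per kb), SRXN1 (43.9 ± 1.05), NQO1 (41.4 ± 0.171), NFE2L2 (19.2 ± 0.696), KEAP1 (18.4 ± 0.515), GSR (18.4 ± 0.418), GCLM (13.3 ± 0.536) and GCLC (6.12 ± 0.676; SD, n = 3). NFE2L2, KEAP1 and GSR did not differ beyond the sum of their SDs from their neighbour in this order. In OIM the order was the same, with TXNRD1 at 57.2 ± 2.08 CPM per kb, SRXN1 at 36.4 ± 2.07, NQO1 at 35.1 ± 1.02, NFE2L2 at 19.8 ± 0.216, KEAP1 at 17.7 ± 0.533, GSR at 16.4 ± 1.11, GCLM at 14.8 ± 0.237 and GCLC at 5.69 ± 0.0539. There SRXN1 and NQO1, and KEAP1 and GSR, lay within the sum of their SDs. In bFGF the order was TXNRD1 (73.3 ± 1.16 CPM per kb), NQO1 (52.0 ± 1.78), SRXN1 (41.5 ± 1.23), GSR (19.7 ± 0.240), KEAP1 (18.6 ± 1.25), GCLM (16.1 ± 0.894), NFE2L2 (14.6 ± 0.612) and GCLC (13.0 ± 0.616). There GSR and KEAP1, and GCLM and NFE2L2, lay within the sum of their SDs. The exon length of NFE2L2 is 10.1 kb over 8 annotated transcripts, so its level per length depends on which of them the cells use, which was not tested.

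Other genes of the pathway were taken from 8 lists by role, 95 genes in all, of which 86 were tested. Of these, 1 was called higher and 1 lower in OIM than in control, together 2.33% beside 2.35% of all genes. In bFGF against OIM 15 were called higher and 16 lower, 36% of them beside 36.2% of all genes. The share called in the pathway was near that of all genes tested in both comparisons. At the adjusted p alone 20 of the 86 (23.3%) passed in OIM against control, 13 of them lower (15.1%), beside 13.6% and 5.87% of all genes, and 66 (76.7%) passed in bFGF against OIM, beside 67.4%. The median log2 fold change over the 86 genes was -0.026 for OIM against control and -0.011 for bFGF against OIM.

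Among partners and regulators of NRF2, 6 of 13 were called in bFGF against OIM, 2 higher and 4 lower, beside 36.2% of all genes. The 2 called higher were PGAM5 and DPP3, with log2 fold changes of 0.62 and 0.56, named after their values were seen. MAFF and MAFK, small MAF proteins that pair with NRF2, fell from 41.3 ± 5.36 to 22.9 ± 1.06 CPM and from 29.0 ± 2.21 to 16.5 ± 2.09 CPM (SD, n = 3), log2 fold changes of -0.85 and -0.81 (adjusted p = 8.16e-09 and 4.41e-08 in edgeR's test). Both were higher in OIM than in control, by 0.36 and 0.30 (adjusted p = 0.00307 and 0.0183), under the fold limit. In bFGF against control MAFF was at -0.49, not called, and MAFK at -0.51, called. MAFG, the third small MAF of the list, at 93.0 ± 1.05 CPM in OIM and 92.2 ± 2.27 in bFGF, was not called, with a log2 fold change of -0.013 (adjusted p = 0.793). It was added after its values were seen. NFE2L1, the related factor NRF1, fell from 732 ± 24.5 to 447 ± 7.34 CPM, a log2 fold change of -0.71. Scaled by library totals alone, NFE2L1 changed by -0.49 and missed the fold limit. SQSTM1, an autophagy receptor that binds KEAP1 and is itself an NRF2 target, had 680.5 ± 15.5 CPM in control, 522 ± 11.5 in OIM and 323 ± 12.6 in bFGF. Its log2 fold change was -0.38 for OIM against control, under the fold limit, and -0.69 for bFGF against OIM, or -0.47 and not called with library totals alone. It was singled out after its values were seen.

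In cystine uptake and glutathione turnover, 5 of 12 genes were called in bFGF against OIM, 2 of them higher and 3 lower. Over all genes tested the share called was 36.2%. SLC7A11, the cystine carrier that feeds glutathione synthesis, had 129, 140 and 135 CPM in OIM and 256, 255 and 252 in bFGF, a log2 fold change of 0.92 with an adjusted edgeR p of 6.35e-14. The bFGF libraries lay far above OIM, as they did for GCLC. GGCT, which splits gamma-glutamyl peptides, rose from 2.74 ± 0.492 to 4.95 ± 0.623 CPM. GGT5, a gamma-glutamyl transferase at the cell surface, was the gene of the 86 called higher in OIM than in control. It had 3.65, 3.46 and 3.98 CPM in control, 9.04, 8.64 and 8.32 in OIM, and 1.98, 1.56 and 1.67 in bFGF. Its log2 fold change was 1.23 for OIM against control (adjusted p = 1.81e-06 in edgeR's test) and -2.32 for bFGF against OIM (adjusted p = 1.27e-11).

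Of 9 glutathione peroxidases and glutaredoxins, 3 were called higher in bFGF than in OIM, beside 17.7% of all genes. None of the other 6 passed both limits. GPX3, the secreted glutathione peroxidase, was the gene of the 86 called lower in OIM, with 5.43, 5.26 and 4.32 CPM in control, 3.12, 3.85 and 2.98 in OIM, and 9.94, 10.4 and 9.23 in bFGF. The log2 fold change was -0.59 for OIM against control (adjusted p = 0.00564 in edgeR's test) and 1.57 for bFGF against OIM (adjusted p = 2.12e-09). GLRX, the cytosolic glutaredoxin, rose from 54.0 ± 2.92 to 102 ± 1.37 CPM in bFGF. GLRX5, which serves iron-sulfur cluster assembly in mitochondria, rose from 7.82 ± 0.820 to 11.3 ± 0.476 CPM, a change of 0.53 that fell under the fold limit without OIM replicate 1 (0.46) or bFGF replicate 1 (0.498).

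Of 8 glutathione transferases tested 5 were called in bFGF against OIM, 2 higher and 3 lower. Over all genes 36.2% were called, 2420 higher and 2519 lower. GSTO1 rose from 29.1 ± 2.02 to 79.4 ± 2.26 CPM, whereas GSTZ1 fell from 11.4 ± 0.348 to 5.38 ± 0.242 and MGST3 from 40.9 ± 2.04 to 19.4 ± 0.926 CPM (SD, n = 3). The log2 fold changes were 1.45, -1.08 and -1.07.

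Of 12 thioredoxins and peroxiredoxins 3 were called higher and 2 lower, beside 36.2% of all genes called in either direction. PRDX1, a peroxiredoxin of the cytosol that thioredoxin reduces, had 287, 292 and 291 CPM in OIM and 569, 559 and 566 in bFGF, a rise of 0.96 on the log2 scale (adjusted p = 3.22e-15 in edgeR's test). In OIM against control PRDX1 was 0.21 lower on average, at 290.0 ± 2.48 against 336 ± 11.9 CPM (adjusted p = 0.00026), under the fold limit. PRDX6 fell from 243 ± 7.10 to 151 ± 5.60 CPM in bFGF, and with library totals alone its change of -0.46 was not called. TXNRD3, a paralog of TXNRD1, fell from 31.6 ± 3.61 to 11.3 ± 1.19 CPM, a log2 fold change of -1.49, while TXNRD1 was 0.36 higher.

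Of 10 genes that supply NADPH, the electron donor of GSR, TXNRD1 and NQO1, 1 was called in bFGF against OIM, beside 36.2% of all genes. IDH2, the mitochondrial isocitrate dehydrogenase, fell from 126 ± 0.938 to 85.4 ± 2.15 CPM, and its change of -0.56 became -0.34 with library totals alone and was not called. In haem and iron handling 2 of 9 were called, both lower, beside the same 36.2% of all genes called in either direction. SLC40A1, the iron exporter ferroportin, fell from 320 ± 23.4 to 106 ± 6.62 CPM and SLC48A1, a haem transporter, from 24.3 ± 1.59 to 14.2 ± 1.44 CPM (SD, n = 3). The ferritin chains were singled out after their values were seen. FTL had 1265 ± 13.1 CPM in control, 998 ± 13.6 in OIM and 1372 ± 61.9 in bFGF, and FTH1 had 1561 ± 60.8, 1195 ± 29.3 and 1077 ± 36.3 CPM. For FTH1 bFGF against OIM was -0.15 on the log2 scale and turned to 0.071 with library totals alone, and for FTL it was 0.46, or 0.68 and called with library totals alone. Processed copies of both ferritin genes can share their reads.

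Of 13 genes that detoxify carbonyls and quinones, 4 were called in bFGF against OIM, 3 higher and 1 lower, beside 36.2% of all genes. UGDH, which makes UDP-glucuronate and so also serves matrix glycosaminoglycans, rose from 182 ± 4.89 to 468 ± 6.26 CPM (log2 fold change 1.36). AKR1C1, whose near-identical family members can share reads, rose from 14.9 ± 1.69 to 43.5 ± 3.02 CPM (1.54). EPHX1, a microsomal epoxide hydrolase, fell from 10.0 ± 0.343 to 4.64 ± 0.138 CPM (-1.11).

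**Figure D4:**
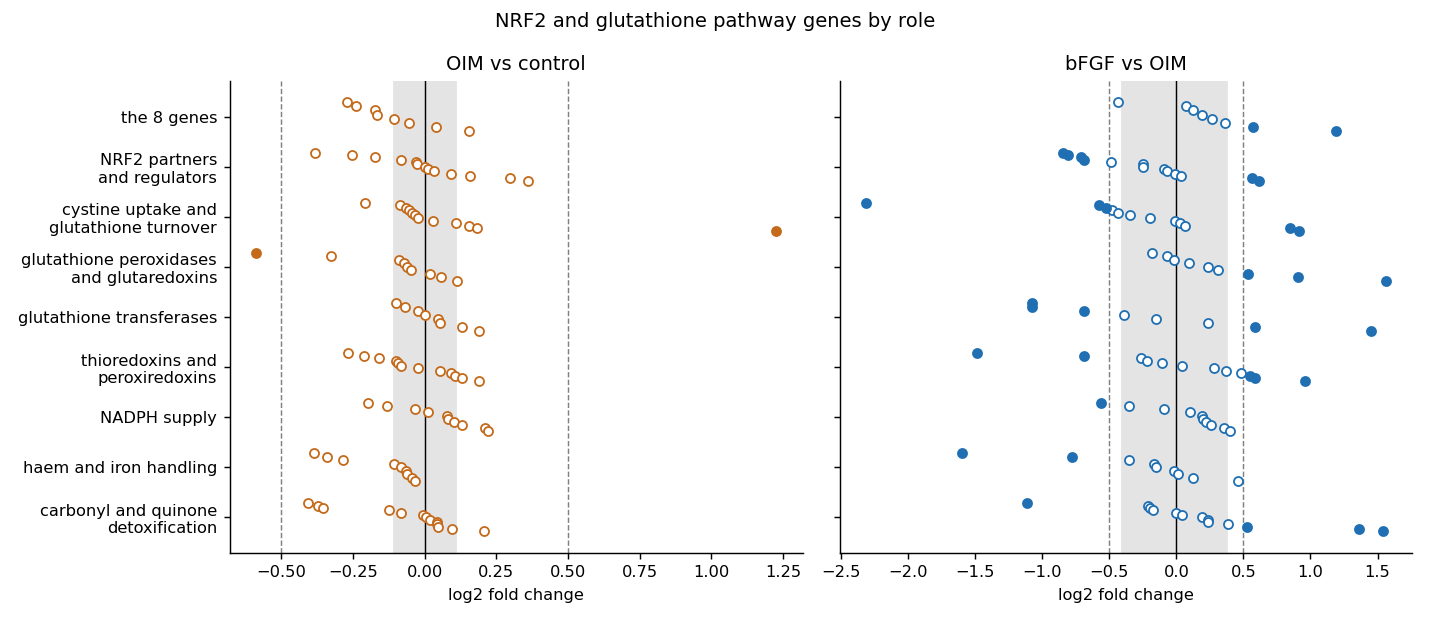
Log2 fold change of the 8 genes (top line) and of 86 other pathway genes by role, in OIM against control (left) and bFGF against OIM (right). Filled points passed both limits and open points did not, dashed lines mark the fold limit of 0.5, and the grey band spans the interquartile range of all 13662 genes. In OIM against control the filled points are GGT5 at 1.23 and GPX3 at -0.59, and in bFGF against OIM filled points lie on both sides.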

How the data were processed

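RNA from PVICs in 3 groups of 3 libraries was sequenced, and the sample titles gave each library its group and number. The methods of the study name Cutadapt and STAR with susScr11, whereas the submitters' processing notes list Trimmomatic, HISAT2, StringTie and Sscrofa11.1. The program that counted reads and its strand setting are not given in the sources used here. The authors deposited 1 table without normalization, in which 19535 gene rows are whole-number counts, 9888 non-coding transcripts are expected counts and 6179 circRNAs are counts. It has 19 further columns with no name or value. Genes were filtered by filterByExpr, scaled by TMM and fitted with edgeR 4.0.16 (R 4.3.3) with 3 group means (6 residual degrees of freedom), and p-values were Benjamini-Hochberg adjusted over 13662 genes. The standard error is the size of the log2 fold change over the square root of F. The script was tested on simulated data. Within each group no library was a copy of another (mean chi-square per gene from 4.62 to 18.8, highest for OIM replicate 2). Pairs of libraries from different groups were not checked in this way. DESeq2 1.42.0 and limma-voom 3.58.1 were among the alternatives. Coordinates, exon lengths and sequences came from RefSeq on Sscrofa11.1, read with pysam 0.24.0. The genes, lists and limits were chosen with earlier results of these data known. The text names the 9 genes, each pathway gene called in OIM against control, and per role the 3 called genes with the largest change in bFGF against OIM and a mean of at least 10 counts. It also names, for the 2 of the 9 with the largest change, the 3 genes of most similar pattern.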

Additional observations from a re-analysis of the deposited data

Results flagged for a closer look

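A circRNA inside NFE2L2, from 82977073 to 82977955 on the minus strand of chromosome 15 (Sscrofa11.1), had 7 counts in OIM replicate 2 and 0 in the other 8 libraries, above the 3 counts that a count of 0 allows. It was looked at because circRNA rows are outside the gene counts and this one exceeded every control library. OIM replicate 2 was also the deepest library, with 67371523 gene counts. The other 2 OIM libraries held 0 counts of it.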

How the results depend on the processing

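The number of the 8 genes called did not change for any comparison under median-of-ratios factors, DESeq2, limma-voom, other filters, fits on only the 2 groups compared, thinned libraries or a replicate block (0, 2 and 1 calls in the order OIM against control, bFGF against OIM, bFGF against control), and leaving out each library in turn gave 0 to 0, 2 to 2 and 1 to 1. Without a fold limit it was 5, 7 and 5, and with a fold limit of 1 bFGF against OIM kept 1. Library totals alone gave 3 in each bFGF comparison. For the 86 pathway genes, 2, 31 and 31 calls became 20, 66 and 67 without a fold limit. As shares these were 23.3%, 76.7% and 77.9%, beside 13.6%, 67.4% and 70.2% of all genes. With a limit of 1 the calls were 1, 10 and 12. At that limit in bFGF against OIM, the share called was smaller among the 86, and among the 8 (1 called), than over all genes. In OIM against control the share among the 86 was larger than over all genes, but rests on 1 gene. Library totals alone moved the median of all genes from -0.0029 to 0.22 in bFGF against OIM and from -0.016 to 0.21 in bFGF against control. The share of calls that were higher went from 49.0% to 68.8% and from 48.5% to 68.1%. Under that setting SRXN1 in bFGF against control reversed to 0.14 and FTH1 in bFGF against OIM to 0.071, and more genes were called higher over the whole table (3733 in place of 2420, and 3931 in place of 2584). KEAP1 in bFGF against control ranged from -0.039 to 0.054 with single libraries left out. The cause was not tested. Replicate numbers are shared between groups in the labels, but libraries with the same number did not deviate together (correlations from -0.032 to 0.0035 over 9 pairs), so the block was not taken as a pairing. It changed no call, and at the adjusted p alone GSR in OIM against control missed the threshold with it.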

Other observations

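Genes most like GCLC over the 9 libraries, by Pearson's correlation of log2 CPM, were PADI1 (0.999), CDK5RAP2 (0.996) and NME1 (0.996). CDK5RAP2 had a mean of 27.5 CPM in control, 25.9 in OIM and 58.2 in bFGF, close to GCLC in level and size of change, while PADI1 went from 0.0171 to 2.52 CPM between OIM and bFGF. Correlations this high rest on the step between bFGF and the other groups: 1522 genes exceeded 0.95 with GCLC. For NQO1, which also separates OIM from control, 133 did, and the closest were CETN2 (0.993), RAB13 (0.990) and PRDX2 (0.988). The points of these correlations share libraries and treatments, so they are descriptions.

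The circRNA rows held 5 entries inside the 8 genes, 4 in GSR and 1 in NFE2L2, whose ends all fell on annotated exon ends. None of the 4 GSR entries had more than 3 counts in a library, too few to compare groups.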
